A study of Mus musculus with 14 samples.

Results

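Described here are 9 genes that p53 switches on or that hold the cell cycle in G1, chosen by name from the 56748 genes measured in mouse spinal cord: Cdkn1a, Cdkn2a, Cdkn2b, Mdm2, Ccng1, Trp53inp1, Phlda3, Bax and Gdf15. All 9 were in the table under 1 row each. Earlier results of these data were known when they were chosen. RNA of whole cord tissue was sequenced, 1 library for each of 14 samples in 4 groups. The groups were AstroCSF1KO with spinal cord injury (SCI), taken 7 days after injury (n = 4), control with SCI, also at 7 days (n = 4), AstroCSF1KO uninjured (n = 3) and control uninjured (n = 3). AstroCSF1KO names a knockout of Csf1, the gene of colony-stimulating factor 1, in astrocytes. The labels name neither the driver of the deletion nor the animals' strain, age or sex, nor the alleles the controls carry. Injured tissue held the lesion, and uninjured tissue came from the matching level. The labels do not say that each library is a separate animal, so p-values measure the spread between these libraries.

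As background, the protein p53, encoded by Trp53, is held low by the ubiquitin ligase MDM2 and is released by DNA damage and other stress. It then binds paired sequence elements and switches on genes that stop the cell cycle, start apoptosis or feed back on p53 itself. Cdkn1a encodes p21, an inhibitor of the kinases that carry cells out of G1, and also responds to signals other than p53. Cdkn2a and Cdkn2b encode the INK4 inhibitors p16 and p15, which block the kinases CDK4 and CDK6, and Cdkn2a also gives p19ARF, which holds back MDM2. In nervous tissue these genes are studied in dying neurons, dividing glia and senescent cells.

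The sequences shown next are those in which a search of promoter windows found the p53 half-site, the 10-base unit that p53 binds in pairs. RefSeq promoter windows of GRCm38.p6, running from 250 bases before to 50 after an annotated start, were found for 8 of the 9 genes, 11 windows in all. Trp53inp1 had no window and is named only. The windows printed are chr17:29090729-29091028 on the plus strand for the upstream start of Cdkn1a, and, on the minus strand, chr11:40755237-40755536 for Ccng1, chr10:117710709-117711008 for Mdm2 and chr7:45466849-45467148 for Bax. Each is written 5′ to 3′ on the strand of its gene, and capitals mark the half-site matches.
Cdkn1a: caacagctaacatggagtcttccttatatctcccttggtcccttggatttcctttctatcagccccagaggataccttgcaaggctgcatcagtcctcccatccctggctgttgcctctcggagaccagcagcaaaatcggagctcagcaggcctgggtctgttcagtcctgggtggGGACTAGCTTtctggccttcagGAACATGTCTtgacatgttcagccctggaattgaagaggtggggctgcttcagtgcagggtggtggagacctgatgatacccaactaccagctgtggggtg
Ccng1: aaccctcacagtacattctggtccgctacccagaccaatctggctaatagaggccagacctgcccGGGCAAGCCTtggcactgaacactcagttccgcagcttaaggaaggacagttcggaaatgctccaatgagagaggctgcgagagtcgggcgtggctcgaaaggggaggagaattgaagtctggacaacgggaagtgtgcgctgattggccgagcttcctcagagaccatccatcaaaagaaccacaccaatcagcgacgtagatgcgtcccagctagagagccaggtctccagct
Mdm2: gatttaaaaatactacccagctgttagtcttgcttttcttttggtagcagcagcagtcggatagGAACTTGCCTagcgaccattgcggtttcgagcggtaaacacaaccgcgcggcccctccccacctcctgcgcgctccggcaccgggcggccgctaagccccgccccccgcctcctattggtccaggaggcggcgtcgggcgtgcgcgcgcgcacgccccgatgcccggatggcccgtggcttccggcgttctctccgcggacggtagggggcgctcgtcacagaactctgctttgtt
Bax: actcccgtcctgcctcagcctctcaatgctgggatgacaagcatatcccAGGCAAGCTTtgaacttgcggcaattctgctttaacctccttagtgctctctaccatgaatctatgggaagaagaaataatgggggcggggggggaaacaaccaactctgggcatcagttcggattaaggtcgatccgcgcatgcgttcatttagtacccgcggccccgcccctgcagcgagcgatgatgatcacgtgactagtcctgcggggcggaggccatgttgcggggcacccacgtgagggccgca
In Cdkn1a the matches began 73 and 51 bases before the start. In Ccng1, Mdm2 and Bax the single match began 185, 186 and 201 bases before it. On either strand, 8.36% of all 32851 windows held at least 1 such match, and overlapping matches were not treated apart. The cyclic AMP response element TGACGTCA was found in the window of Cdkn2b, 46 bases before its start, and in 1.79% of all windows. The AP-1 element TGANTCA, in 7.81% of windows, and the CHOP-ATF4 element TGATGNAAN, in 3.95%, had no match in the windows of these genes. These are matches of letters in a fixed window, and binding was not measured.

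Values are FPKM, fragments scaled by gene length and by library size, as deposited. The depth, from whole reads recovered from them, was 13263610 to 21969581 reads. In 3 of the control libraries (injured replicates 1 and 4 and uninjured replicate 1) genes seen in exactly 1 read made up 1.45 to 2.06% of detected genes, against 8.44 to 11.6% in the other 11 libraries, and these 3 are called the libraries that stand apart. A further 4 libraries (injured AstroCSF1KO replicates 2, 3 and 4 and uninjured replicate 3) held rRNA genes at 2.89 to 3.99% of their reads, where the other 10 held 0.290 to 0.764%. Csf1 was at 16.4 to 19.9 FPKM in injured AstroCSF1KO cords and 7.95 to 18.3 FPKM in injured control cords, and at 8.23 to 11.02 FPKM in uninjured AstroCSF1KO cords and 4.24 to 12.2 FPKM in uninjured control cords. Over all libraries Csf1 was not lower in those labelled knockout. Without uninjured control replicate 1, a library that stands apart, uninjured AstroCSF1KO cords averaged 9.87 FPKM against 12.1 FPKM in the 2 control cords left. Every AstroCSF1KO library lay below both, but the log2 difference of Csf1, -0.28 ± 0.13, did not pass (limma, adjusted p = 0.391). The 2 controls left carried the female pattern of Xist and Ddx3y, and AstroCSF1KO replicates 1 and 2 the male pattern. In injured cords, without the control libraries that stand apart, Csf1 averaged 18.5 FPKM in AstroCSF1KO cords and 18.0 FPKM in control cords. As background, cells other than astrocytes also make Csf1. Markers of oligodendrocytes summed to 3007 to 3994 FPKM and those of neurons to 240.2 to 895.5 FPKM over the 14 libraries, while the markers of T cells and B cells summed to at most 0.313 and 0.456 FPKM.

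Across the 14 libraries Phlda3 was the most abundant of the 9 genes per length, with a median of 62.1 FPKM. It was followed by Ccng1 at 25.7, Bax at 14.7, Cdkn1a at 10.2, Mdm2 at 9.93 and Trp53inp1 at 4.05 FPKM. Cdkn2b, Gdf15 and Cdkn2a lay far below, at 1.44, 0.204 and 0.104 FPKM. The ranges of neighbours in this order overlapped, from 9.20 to 87.1 FPKM for Phlda3 and from 12.8 to 62.9 FPKM for Ccng1. At the low end the depth was thin: Cdkn2a had 0 to 29 reads in a library, Cdkn2b 3 to 59 and Gdf15 0 to 133, against 834 to 1491 for Mdm2.

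**Figure D1:**
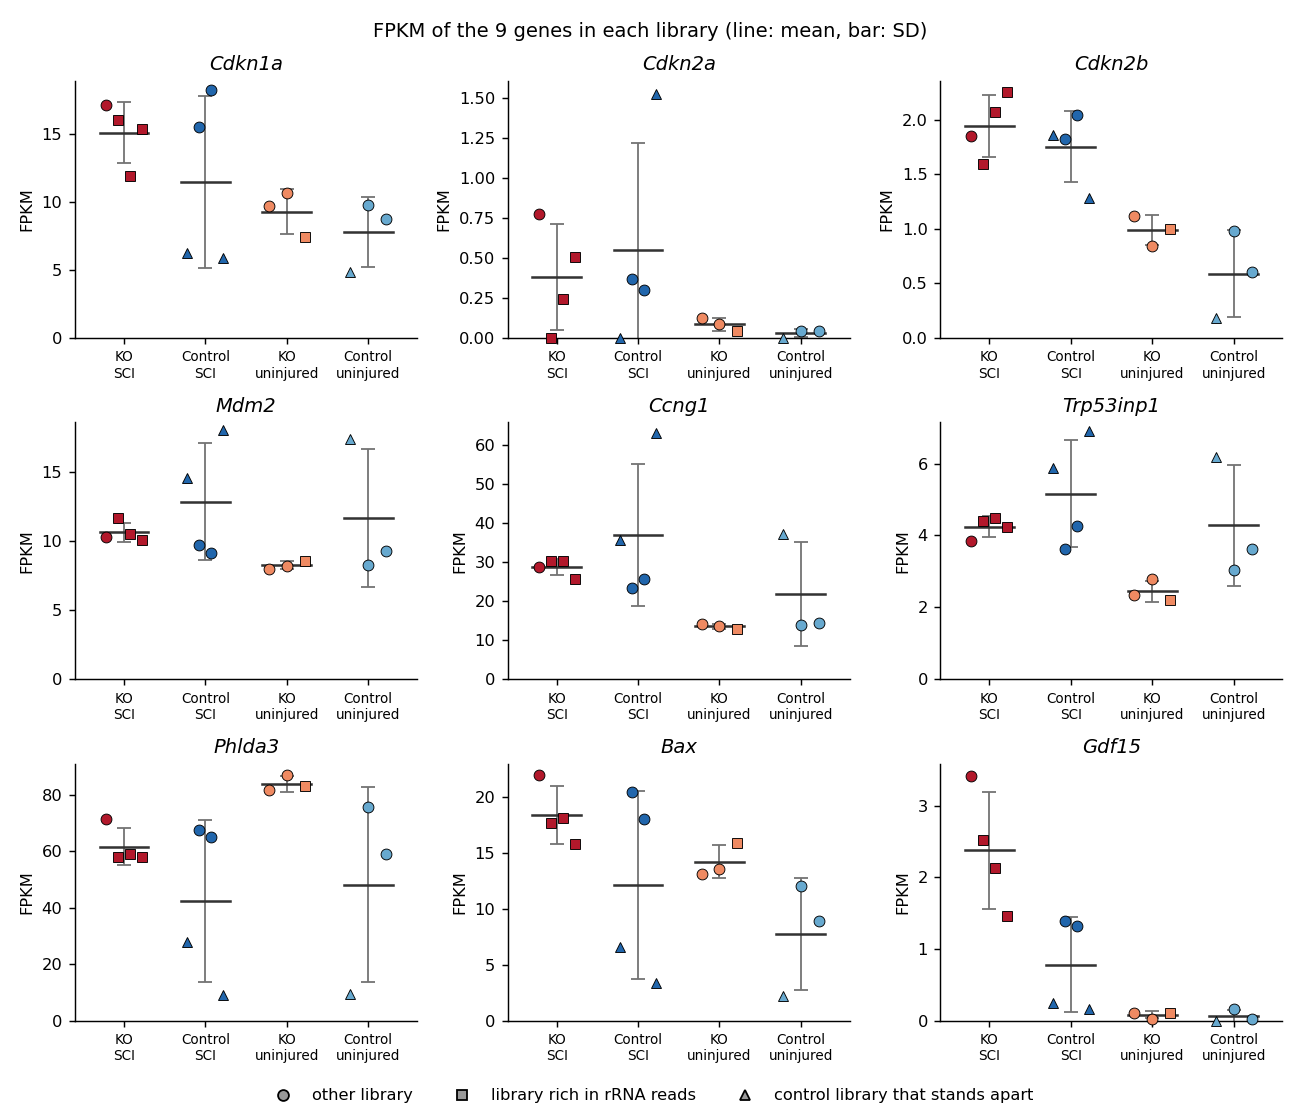
FPKM of each of the 9 genes (y axis, from 0) in each library, by group; KO stands for AstroCSF1KO, points are libraries, the line is the mean and the bar the SD. Gdf15 reaches 1.46 to 3.42 FPKM in injured AstroCSF1KO cords and at most 1.39 FPKM in the other groups, and the control libraries that stand apart (triangles) lie below their groups for Phlda3 and Bax and above them for Ccng1, Mdm2 and Trp53inp1.

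The change with injury was tested in each genotype and in both together. Genes with at least 1 FPKM in at least 3 libraries were kept, 15155 in all and 8 of the 9 genes described here. A log2 change is on the scale of log2(FPKM + 1) and is given with its standard error. P-values from limma were adjusted by Benjamini and Hochberg over the genes kept, and a gene passed at an adjusted p under 0.05. Cdkn2a, at 1 FPKM or more in 1 library, was not kept. Gdf15 reached 1 FPKM in 6 libraries, all injured, and Cdkn2b in 9, of which 8 were injured. These passed the filter through the group in which they are high, and so the counts given below are descriptions. The same holds for the limma p-values of Gdf15 and Cdkn2b for injury. Every injured AstroCSF1KO library reached 1 FPKM for Gdf15, and not every injured control library did. So it holds also for Gdf15 between injured genotypes and in the interaction.

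In AstroCSF1KO cords the 8 genes kept all passed the test, 7 higher after injury and 1, Phlda3, lower. Over all genes kept, 45.8% passed in this comparison, 19.7% higher and 26.1% lower. The largest log2 changes were those of Gdf15, at 1.61 ± 0.18 (adjusted p = 2.96e-04), and Ccng1, at 1.03 ± 0.07 (adjusted p = 3.24e-05). The median log2 change was 0.58 over the 8 genes and -0.03 over all genes kept. Scaled to total reads, 3320 of all genes passed higher and 3274 lower, against 2991 and 3952 as deposited, and the 8 genes passed still. Without the 4 libraries rich in rRNA reads, which leaves 1 injured library, 3 passed (Ccng1, Bax and Gdf15), and in a fit of all 14 libraries 1 did (Gdf15). For 7 of the 8 genes, and for 50.7% of all genes kept, the injured libraries were clear of the uninjured ones. In control cords 0 of the 8 genes passed limma's test, against 1.04% of all genes kept, or 158 genes. Of all genes, 1456 had an unadjusted p under 0.05 there, among them Cdkn2b. Without the 3 libraries that stand apart, 5 of the 8 passed, all higher (Cdkn1a, Cdkn2b, Ccng1, Bax and Gdf15), against 23.9% of all genes. Both injured control libraries then left carried the male pattern of Xist and Ddx3y and both uninjured ones the female pattern, so sex and injury cannot be told apart in that fit. With replicate number as a block in control cords, 1 of the 8 passed, Bax, and 1030 of all genes. Over both genotypes, with genotype as a term, 3 of the 8 passed, all higher: Gdf15, Ccng1 and Cdkn2b. Of all genes kept, 18.0% passed there and 10.5% were higher. Without the 4 libraries rich in rRNA reads only Cdkn2b passed in that fit. Without the 3 libraries that stand apart, 8 of 8 passed in that fit, 7 higher and 1 lower, against 51.1% of all genes.

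**Figure D2:**
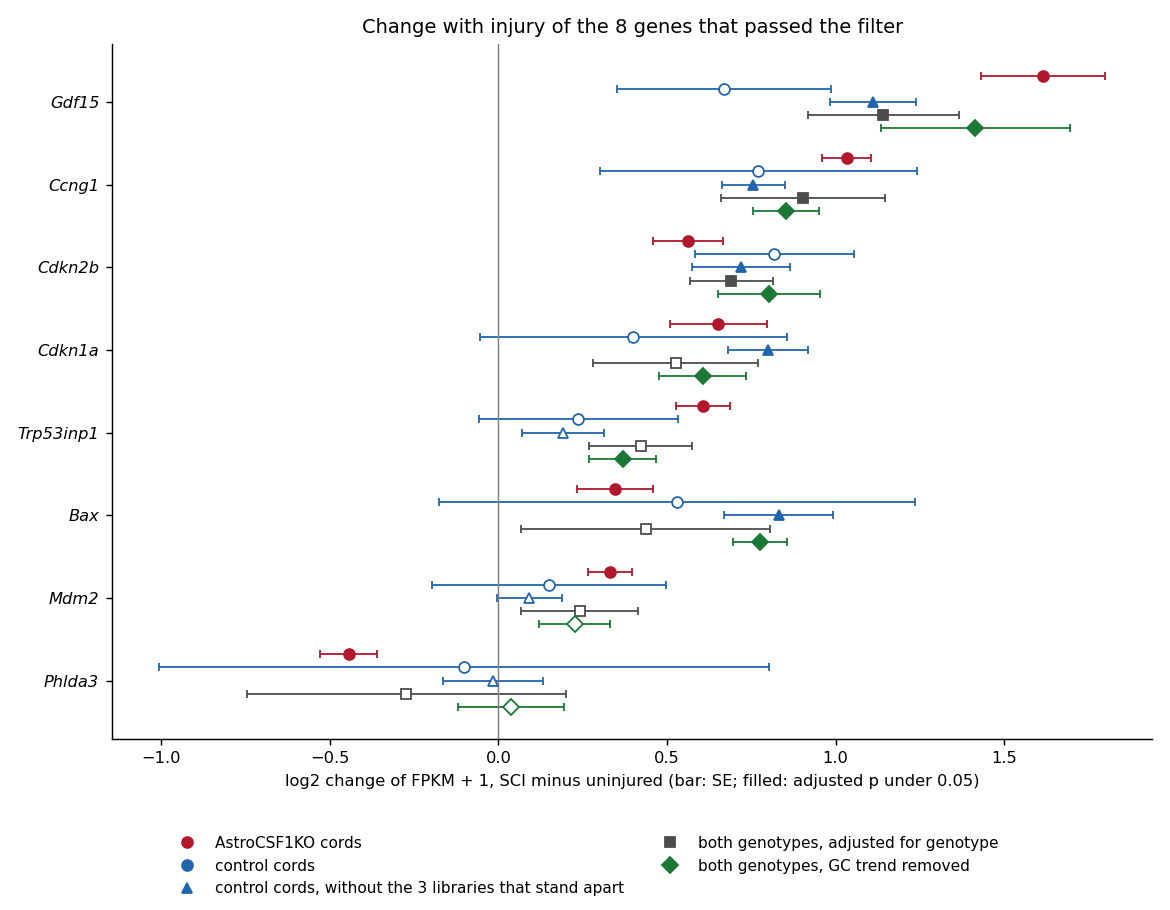
Log2 change of FPKM + 1 with injury (x axis, bars are SE) for the 8 genes that passed the filter, by genotype and with other settings; filled points passed at an adjusted p under 0.05. In AstroCSF1KO cords the 8 points are filled and only Phlda3 lies below 0; in control cords none is filled until the 3 libraries that stand apart are left out.

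The tissue changed its cell markers along with these genes. The 8 microglia and macrophage markers summed to 775 to 1449 FPKM in injured AstroCSF1KO cords and 776 to 1141 FPKM in injured control cords, against 50.5 to 56.3 FPKM and 53.6 to 58.4 FPKM in the uninjured cords of each genotype. All 8 had a higher mean after injury in both genotypes, and none was at 0 in every library. The means of the 4 astrocyte and 3 fibroblast markers were also higher after injury in both genotypes, and 0 of the 5 neuron markers had a higher mean after injury in either. The part of these shifts in the changes of the 9 genes was not tested, and in bulk tissue fewer cells of a type and less RNA per cell cannot be told apart.

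Among the inhibitors of the G1 kinases, Cdkn1a and Cdkn2b were higher after injury in AstroCSF1KO cords. Cdkn1a (ENSMUSG00000023067, chr17:29309950-29319701 of mm39, plus strand) stood at 17.1, 16.1, 11.9 and 15.3 FPKM in injured AstroCSF1KO cords, against 9.73, 10.6 and 7.41 FPKM in uninjured ones. Every injured library lay above every uninjured one. Injured control cords had 6.23, 15.5, 18.2 and 5.87 FPKM, against 4.86, 9.75 and 8.72 FPKM in uninjured control cords. Here the groups overlapped: the low values of 6.23, 5.87 and 4.86 FPKM all belong to libraries that stand apart. The log2 change was 0.65 ± 0.14 in AstroCSF1KO cords (limma, adjusted p = 0.00715) and 0.40 ± 0.46 in control cords (adjusted p = 0.999). When the libraries that stand apart were left out, the change of Cdkn1a in control cords was 0.80 ± 0.12 (limma, adjusted p = 0.0157). That fit holds 2 injured and 2 uninjured libraries, in which sex and injury cannot be told apart. Reads of Cdkn1a cannot be told from those of the antisense gene 1700023B13Rik, because strand was not kept, but that gene was at most at 0.635 FPKM.

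Cdkn2b (ENSMUSG00000073802, chr4:89224536-89229276 of mm39, minus strand), the gene of p15, stood at 1.85, 1.60, 2.07 and 2.25 FPKM in injured AstroCSF1KO cords, against 1.12, 0.842 and 0.999 FPKM in uninjured ones. Injured control cords had 1.86, 1.82, 2.04 and 1.28 FPKM, against 0.179, 0.977 and 0.6003 FPKM in uninjured control cords. In each genotype all injured libraries lay above all uninjured ones, with 3 to 59 reads behind a value. In control cords 2 of the 8 genes were without overlap, Cdkn2b and Gdf15, against 12.6% of all genes kept. The log2 change of Cdkn2b was 0.56 ± 0.10 in AstroCSF1KO cords (adjusted p = 0.00298) and 0.82 ± 0.24 in control cords (adjusted p = 0.226), and 0.69 ± 0.12 with genotype as a term (limma, adjusted p = 0.0013). An exact two-sided permutation of injury labels within genotypes gave p = 0.000816, the smallest that its 1225 relabelings allow. The overlapping gene Gm12610 was at most at 0.0529 FPKM.

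Cdkn2a (ENSMUSG00000044303, chr4:89192708-89212890 of mm39, minus strand), next to Cdkn2b, was near the limit of detection. It had 19, 0, 5 and 11 reads in injured AstroCSF1KO cords, against 3, 2 and 1 reads in uninjured ones. Injured control cords had 0, 10, 7 and 29 reads, against 0, 1 and 1 reads in uninjured control cords. The libraries with 10 or more reads were all injured, and in each genotype 1 injured library had 0. A count of 0 allows up to 3 reads, or 0.154 FPKM in injured AstroCSF1KO replicate 2, 0.144 FPKM in injured control replicate 1 and 0.212 FPKM in uninjured control replicate 1, for counting error alone. The exact two-sided permutation within genotypes gave p = 0.0424 for Cdkn2a, 1 of 9 genes tested so. The values of the gene do not separate p16 from p19ARF.

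The genes that feed back on p53 were higher after injury in AstroCSF1KO cords too. Mdm2 (ENSMUSG00000020184, chr10:117524780-117546663 of mm39, minus strand) had 10.3, 11.7, 10.5 and 10.1 FPKM in injured AstroCSF1KO cords, against 7.99, 8.20 and 8.58 FPKM in uninjured ones. In control cords it had 14.6, 9.74, 9.13 and 18.05 FPKM after injury, against 17.4, 8.29 and 9.30 FPKM without it. The AstroCSF1KO groups were narrow and apart, while the control groups overlapped and their 3 high values were those of the libraries that stand apart. The log2 change of Mdm2 was 0.33 ± 0.06 in AstroCSF1KO cords (limma, adjusted p = 0.0038) and 0.15 ± 0.35 in control cords (adjusted p = 0.999). Leaving out the 3 that stand apart gave 0.09 ± 0.10 in control cords (limma, adjusted p = 0.524), a fit in which sex and injury cannot be told apart.

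Ccng1 (ENSMUSG00000020326, chr11:40639379-40646138 of mm39, minus strand) encodes cyclin G1, which recruits a phosphatase that acts on MDM2. It stood at 28.6, 30.2, 30.3 and 25.7 FPKM in injured AstroCSF1KO cords, against 14.04, 13.6 and 12.8 FPKM in uninjured ones. The injured mean was 2.13 times the uninjured mean, 28.7 ± 2.15 FPKM against 13.5 ± 0.633 FPKM (SD, n = 4 and 3). The injured control cords stood at 35.5, 23.3, 25.6 and 62.9 FPKM, against 37.2, 13.7 and 14.4 FPKM in uninjured control cords. The groups of control cords overlapped through uninjured replicate 1 alone, a library that stands apart. Without such libraries the change of Ccng1 in control cords was 0.76 ± 0.09 (limma, adjusted p = 0.0118), against 0.77 ± 0.47 with them (adjusted p = 0.797). The fit without them holds 2 injured and 2 uninjured libraries, in which sex and injury cannot be told apart. With genotype as a term the change of Ccng1 was 0.90 ± 0.24 (limma, adjusted p = 0.0188), and the exact permutation within genotypes gave p = 0.00653.

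Trp53inp1 (ENSMUSG00000028211, chr4:11156431-11174379 of mm39, plus strand) encodes a stress protein that acts with p53 and in autophagy. It had 3.84, 4.39, 4.49 and 4.25 FPKM in injured AstroCSF1KO cords, against 2.35, 2.78 and 2.22 FPKM in uninjured ones. Injured control cords had 5.88, 3.62, 4.26 and 6.91 FPKM, against 6.18, 3.03 and 3.62 FPKM in uninjured control cords. The AstroCSF1KO groups did not overlap and the control groups did. The log2 change of Trp53inp1 was 0.61 ± 0.08 in AstroCSF1KO cords (limma, adjusted p = 6.11e-04) and 0.24 ± 0.30 in control cords (adjusted p = 0.999). With genotype as a term it was 0.42 ± 0.15 and missed the threshold (adjusted p = 0.0763), while the exact permutation within genotypes gave p = 0.0253.

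Trp53 itself (chr11:69471185-69482699 of mm39) stood at 6.54, 6.04, 6.26 and 5.68 FPKM in injured AstroCSF1KO cords, against 4.85, 5.07 and 4.81 FPKM in uninjured ones. These groups did not overlap, and the log2 change was 0.27 ± 0.06 (limma, adjusted p = 0.0083). In control cords Trp53 had 3.35, 5.98, 6.90 and 1.43 FPKM after injury, against 1.15, 5.13 and 4.67 FPKM without it, and the change was 0.22 ± 0.53 (adjusted p = 0.999). With genotype as a term it was 0.25 ± 0.27 (adjusted p = 0.619). An antisense gene, ENSMUSG00000121121, overlaps Trp53 and reached 8.495 FPKM, so reads of the pair cannot be told apart.

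The genes linked to cell death and survival did not move one way. Phlda3 (ENSMUSG00000041801, chr1:135693857-135696874 of mm39, plus strand), a p53 target whose protein restrains the survival kinase AKT, had 71.6, 58.1, 59.0 and 58.1 FPKM in injured AstroCSF1KO cords, against 81.8, 87.1 and 83.1 FPKM in uninjured ones. Every injured library lay below every uninjured one. In injured control cords Phlda3 had 27.8, 67.7, 64.9 and 9.20 FPKM, against 9.48, 75.8 and 59.2 FPKM in uninjured control cords. These groups overlapped widely, with the 3 lowest values in the libraries that stand apart. The log2 change of Phlda3 was -0.44 ± 0.08 in AstroCSF1KO cords (limma, adjusted p = 0.00355) and -0.10 ± 0.90 in control cords (adjusted p = 0.999). When each library's trend on GC content was removed, an alternative added after seeing the data, the change in AstroCSF1KO cords was -0.10 ± 0.06 and no longer passed (adjusted p = 0.219).

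Bax (ENSMUSG00000003873, chr7:45111121-45116322 of mm39, minus strand), the gene of a protein that opens the outer mitochondrial membrane in apoptosis, had 22, 17.7, 18.1 and 15.8 FPKM in injured AstroCSF1KO cords, against 13.2, 13.6 and 15.9 FPKM in uninjured ones. The groups touched at 15.8 and 15.9 FPKM. In injured control cords Bax had 6.56, 20.5, 18.1 and 3.36 FPKM, against 2.21, 12.1 and 8.91 FPKM in uninjured control cords. The control groups overlapped, and their 3 lowest values were again those of the libraries that stand apart. The log2 change of Bax was 0.35 ± 0.11 in AstroCSF1KO cords (limma, adjusted p = 0.0366) and 0.53 ± 0.71 in control cords (adjusted p = 0.999). In AstroCSF1KO cords Bax no longer passed when injured replicate 2 or 3 or uninjured replicate 1 or 2 was left out, with changes of 0.26 to 0.42 over the 7 libraries left out in turn. In control cords the change by limma was 0.97 ± 0.14 with replicate number as a block (adjusted p = 0.034). It was 0.83 ± 0.16 when the libraries that stand apart were left out (adjusted p = 0.0279) and 0.83 ± 0.14 with the GC trend removed (adjusted p = 0.0149). With those libraries left out, sex and injury cannot be told apart in control cords.

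Gdf15 (ENSMUSG00000038508, chr8:71082043-71085106 of mm39, minus strand) encodes a secreted stress hormone that p53 and the ATF4 and CHOP stress pathway can both induce. It stood at 3.42, 2.53, 2.13 and 1.46 FPKM in injured AstroCSF1KO cords, from 50 to 133 reads, against 0.105, 0.0263 and 0.111 FPKM in uninjured ones, from 1 to 4 reads. Gdf15 had in injured control cords 0.243, 1.39, 1.32 and 0.166 FPKM, from 5 to 60 reads, against 0, 0.157 and 0.0265 FPKM in uninjured control cords, from 0, 6 and 1 reads. In AstroCSF1KO cords every injured library lay far above every uninjured one. In control cords the groups were apart by 0.166 FPKM from 5 reads against 0.157 FPKM from 6 reads, a gap within counting error. The 0 of uninjured control replicate 1 allows up to 3 reads, or 0.134 FPKM. Gdf15 changed by 0.67 ± 0.32 in control cords (limma, adjusted p = 0.612) and by 1.14 ± 0.22 with genotype as a term (adjusted p = 0.00258). On this scale the change of such a low gene is understated. The exact permutation within genotypes gave p = 0.000816, the smallest it can give.

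Over the 9 genes, the exact permutation within genotypes was under 0.05 for 5: Cdkn2a, Cdkn2b, Ccng1, Gdf15 and Trp53inp1. These p-values are not adjusted, and in the limma fit of the same contrast 4405 of the 15155 genes kept had an unadjusted p under 0.05. The exact permutation p was 0.0694 for Cdkn1a, 0.194 for Mdm2, 0.302 for Bax and 0.576 for Phlda3. With the 3 that stand apart left out, this exact permutation p was under 0.05 for 8, with Phlda3 the exception at p = 0.0667, and limma's unadjusted p was under 0.05 for 8554 of all genes. In the control libraries then left, sex and injury cannot be told apart.

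In the 3 control libraries that stand apart, genes differed by the base composition of their transcripts, and most of the 9 genes did so too. Over 13085 kept protein-coding genes, the difference of log2(FPKM + 1) between these libraries and the others of their groups had a median of 0.98 in the tenth of genes with the lowest GC content and -1.65 in the tenth with the highest. Spearman's rho across these genes, which share the same libraries and are not replicates, was -0.852 with GC content. Phlda3, at 62.6% GC, differed by -2.34 and Bax, at 63.5%, by -1.82. Cdkn1a, at 54.4%, differed by -1.07. The low genes differed less on this scale, which understates differences of genes near 0. Gdf15, at 61.3%, differed by -0.55, Cdkn2b, at 55.9%, by -0.39, with its injured libraries on both sides, and Cdkn2a, at 60.2%, by 0.10. In FPKM, Gdf15 in injured control cords was 0.166 to 0.243 in the libraries that stand apart and 1.32 to 1.39 in the others. Ccng1, at 40.8% GC, differed by 1.13, Mdm2, at 46.2%, by 0.82 and Trp53inp1, at 38.8%, by 0.66. In the libraries that stand apart Cdkn1a, Phlda3 and Bax were lower than in every other control library of the same group, injured and uninjured. Mdm2, Ccng1 and Trp53inp1 were higher in the same way. Gdf15 was lower so in injured cords. In uninjured cords it had 0 reads against 6 and 1, too few to tell. With the GC trend removed, 6 of the 8 genes passed with genotype as a term, all higher: Gdf15, Ccng1, Cdkn2b, Cdkn1a, Bax and Trp53inp1. All genes called in that fit were 5104, or 33.7% of those kept, so calls became more frequent among all genes as well. The log2 changes in it were 0.61 ± 0.13 for Cdkn1a (limma, adjusted p = 0.0023) and 0.78 ± 0.08 for Bax (adjusted p = 5.84e-06), and Phlda3 was at 0.04 ± 0.16 (adjusted p = 0.891). For Gdf15 and Cdkn2b, which are near 0, subtracting such a trend is not meaningful.

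**Figure D3:**
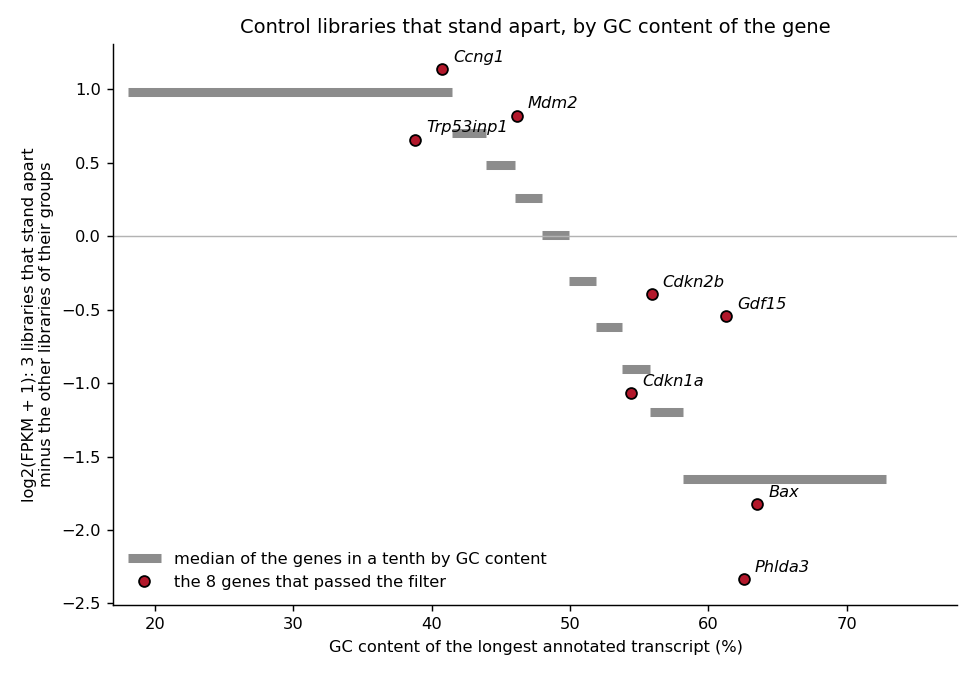
Difference of log2(FPKM + 1) between the 3 control libraries that stand apart and the other libraries of their groups (y axis) by GC content of the longest annotated transcript (x axis, %); grey bars are medians over 10 equal bins of genes and span their GC range. The medians run down from 0.98 to -1.65, and Phlda3 and Bax lie at the low end, Ccng1 at the high end.

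Differences between the genotypes were tested within injured and within uninjured cords, for the question whether the astrocyte deletion of Csf1 went with other levels of these genes. By limma 0 of the 8 genes kept differed in injured cords and 0 in uninjured cords, against 0% of all genes in each, while 497 and 331 of all genes had an unadjusted p under 0.05. Gdf15 came nearest in injured cords: all 4 AstroCSF1KO libraries, at 1.46 to 3.42 FPKM, lay above all 4 control libraries, at 0.166 to 1.39 FPKM. The means were 2.38 ± 0.818 FPKM and 0.779 ± 0.665 FPKM (SD, n = 4 each). The log2 difference of Gdf15 was 0.97 ± 0.30 (unadjusted p = 0.0107, adjusted p = 0.477), and the exact two-sided permutation gave p = 0.0286, the smallest that 4 against 4 libraries allow. Of all genes kept, 3.15% were without overlap in this comparison, and 1 of the 8 genes. Gdf15 passed the filter through the injured AstroCSF1KO cords, where it is high, so its limma p-values and this count are descriptions. Without the 2 injured control libraries that stand apart the difference was 0.49 ± 0.22 (limma, adjusted p = 0.714). The 2 injured controls left carried the male pattern of Xist and Ddx3y, and AstroCSF1KO replicates 3 and 4 the female pattern. All AstroCSF1KO libraries were then above the 2 control libraries left for 3 of the 8 genes: Gdf15, Mdm2 and Ccng1. The share of all genes with that pattern was not counted. With the GC trend removed, a step not meaningful for a gene near 0, the difference of Gdf15 was 0.29 ± 0.23 (limma, adjusted p = 0.585). Microglia and macrophage markers summed to 775 to 1449 FPKM in these AstroCSF1KO cords and 776 to 1141 FPKM in these control cords, and neutrophil markers to 6.48 to 16.1 FPKM and 3.24 to 7.24 FPKM; their part in the difference was not tested.

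The other genes overlapped between genotypes in injured cords when all libraries were used. Bax had a mean of 18.4 ± 2.61 FPKM in injured AstroCSF1KO cords and 12.1 ± 8.42 FPKM in injured control cords, and Phlda3 61.7 ± 6.59 FPKM and 42.4 ± 28.6 FPKM (SD, n = 4 each). Their log2 differences, 0.84 ± 0.48 and 0.88 ± 0.56, were -0.07 ± 0.13 and -0.11 ± 0.10 without the libraries that stand apart. In uninjured cords Phlda3 and Bax were higher, and Trp53inp1 lower, in all 3 AstroCSF1KO libraries than in all 3 control libraries, a pattern without overlap that 23.3% of all genes kept showed. None of the 3 passed limma's test: the log2 differences were 1.22 ± 0.75 for Phlda3, 1.02 ± 0.52 for Bax and -0.57 ± 0.25 for Trp53inp1, each with an adjusted p = 0.603. Without uninjured control replicate 1 they were 0.32 ± 0.12, 0.42 ± 0.15 and -0.33 ± 0.11 (limma, adjusted p = 0.381 each). The 2 controls then left carried the female pattern of Xist and Ddx3y, and AstroCSF1KO replicates 1 and 2 the male pattern. With 3 against 3 libraries an exact permutation test cannot reach 0.05. Trp53 differed by 0.54 ± 0.34 in injured cords (adjusted p = 0.477) and 0.49 ± 0.42 in uninjured cords (adjusted p = 0.603).

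Whether injury acted differently in the genotypes was tested as an interaction over the 14 libraries, and 0 of the 8 genes passed, against 0% of all genes kept, with 91 genes at an unadjusted p under 0.05. For Gdf15 the injury change in AstroCSF1KO cords exceeded that in control cords by 0.95 ± 0.38 (unadjusted p = 0.0286, adjusted p = 1). As Gdf15 passed the filter through injured AstroCSF1KO cords, its value here is a description. For the other 7 genes the interaction lay between -0.34 and 0.37. A call in AstroCSF1KO cords beside none in control cords is therefore not shown to be a difference between genotypes.

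**Figure D4:**
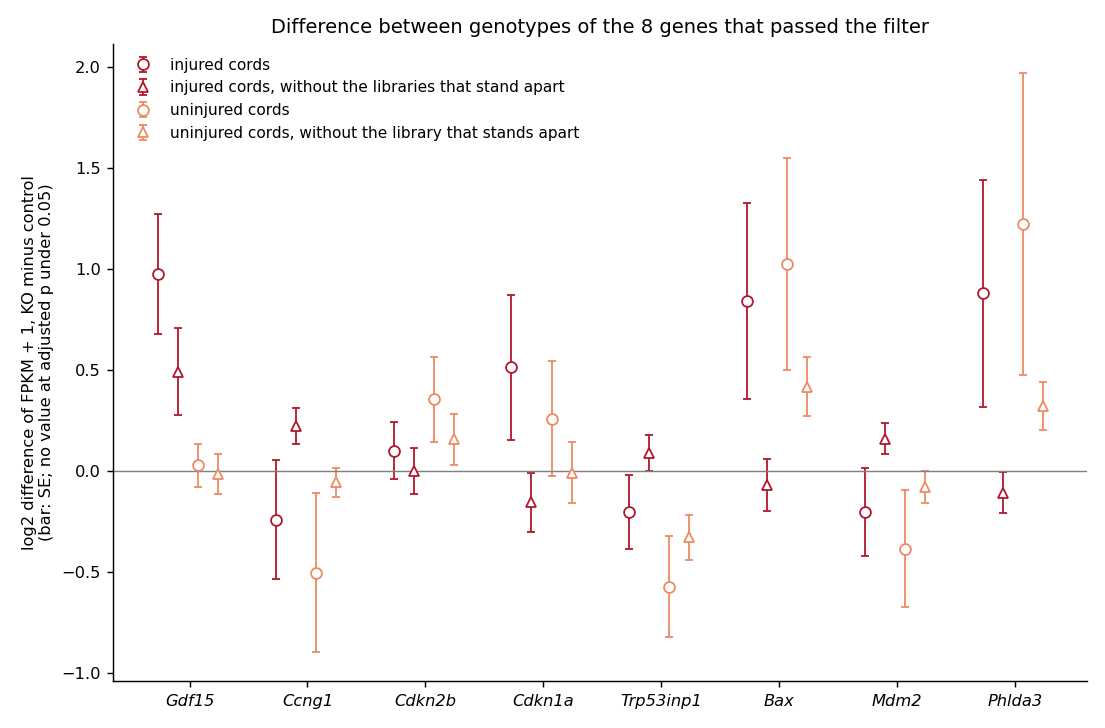
Log2 difference of FPKM + 1 between AstroCSF1KO and control cords (y axis, bars are SE) for the 8 genes that passed the filter, in injured and uninjured cords, with and without the libraries that stand apart. None passed at an adjusted p under 0.05; the differences of Phlda3 and Bax in injured cords, 0.88 and 0.84, lie near 0 without those libraries, and that of Gdf15 goes to 0.49.

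The lists that follow are read against the shares of all genes kept that passed. These were 45.8% in AstroCSF1KO cords, 19.7% higher and 26.1% lower, and 1.04% in control cords. Over both genotypes, with genotype as a term, the share was 18.0%, with 10.5% higher. In AstroCSF1KO cords 10 of the 22 tested among 26 other p53 regulators and targets rose and 2 fell. The median log2 change was 0.24. The share called in either direction was near that of all genes. A larger share rose, and a smaller share fell, than over all genes kept. Fas, the death receptor, rose by 1.28 ± 0.08 (limma, adjusted p = 2.14e-05), and Tigar, a regulator of glycolysis, fell by 0.65 ± 0.06 (adjusted p = 1.34e-04). The detoxifying enzyme Ephx1 rose by 0.46 ± 0.09 (adjusted p = 0.00454). Over both genotypes 5 rose and 2 fell, among them Perp, a membrane protein of cell junctions and apoptosis, at 0.94 ± 0.19 (adjusted p = 0.00285). In control cords none of the 22 passed. Without the libraries that stand apart 7 rose and 2 fell there, where 23.9% of all genes kept passed. Sex and injury cannot be told apart in that fit. Among the other CDK inhibitors in AstroCSF1KO cords, Cdkn2c, the gene of p18, rose by 1.06 ± 0.12 (adjusted p = 3.41e-04) and Cdkn2d, the gene of p19INK4D, fell by 0.45 ± 0.07 (adjusted p = 0.00105), while 2 of the 4 did not pass.

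Genes of cell division were mostly higher after injury than without it in AstroCSF1KO cords. Of 19 S phase and mitosis genes tested in AstroCSF1KO cords 15 rose and 0 fell, with a median log2 change of 0.70, and in control cords 0 of the 19 passed, with a median of 0.77. The proliferation antigen gene Mki67 rose by 1.15 ± 0.13 (limma, adjusted p = 2.61e-04), the topoisomerase gene Top2a by 1.19 ± 0.12 and the ribonucleotide reductase gene Rrm2 by 1.13 ± 0.08. Over both genotypes 13 of the 19 rose. Of 11 genes of G1 cyclins, their kinases and the retinoblastoma family, 7 rose and 1 fell in AstroCSF1KO cords and 0 passed in control cords. Cyclin D genes Ccnd1 and Ccnd2 rose by 0.90 ± 0.13 and 0.94 ± 0.13 and the retinoblastoma gene Rb1 by 0.82 ± 0.06, while the cyclin E gene Ccne1 fell by 0.70 ± 0.05 (adjusted p = 4.49e-05). Over both genotypes 4 rose and 1 fell in this group.

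The BCL2 family, to which Bax belongs, held 6 genes that rose and 2 that fell of 10 others tested in AstroCSF1KO cords, and 0 of the 10 passed in control cords. The survival gene Mcl1 rose by 0.73 ± 0.07 (limma, adjusted p = 1.42e-04), and so did the death-promoting genes Bcl2l11, by 0.72 ± 0.08, and Hrk, by 0.75 ± 0.09. The survival gene Bcl2l2 fell by 0.54 ± 0.07 (adjusted p = 6.86e-04). Over both genotypes 3 of the 10 rose and 0 fell. Both death-promoting and protective members were thus among those that rose.

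Of 14 tested genes of the ATF4 and CHOP stress response, 5 rose and 2 fell in AstroCSF1KO cords. In either direction this share was again near that of all genes, of which 19.7% rose and 26.1% fell. The median log2 change of the 14 was 0.08. The transcription factor gene Atf3 rose by 3.57 ± 0.09 (limma, adjusted p = 5.43e-07) and the stress gene Nupr1 by 1.82 ± 0.32, Ddit3, the gene of CHOP, rose by 0.44 ± 0.07, and the asparagine synthetase gene Asns fell by 0.52 ± 0.07. Atf3 was also called in control cords, at 3.05 ± 0.19 (adjusted p = 0.00222), the 1 gene of this list that was. Over both genotypes 4 rose and 1 fell, Slc7a11, the cystine transporter gene, rising by 1.11 ± 0.23 (adjusted p = 0.00335). Of the genes for the GDF15 receptor, Gfral was not kept, and Ret, its partner, rose by 0.42 ± 0.11 in AstroCSF1KO cords (adjusted p = 0.0149) and was at 0.31 ± 0.13 with genotype as a term (adjusted p = 0.139).

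Of 9 tested genes from a list named for the secretory phenotype of senescence, 8 rose in AstroCSF1KO cords, 9 with genotype as a term and 3 in control cords. Timp1, a protease inhibitor gene, rose by 3.97 ± 0.16 in AstroCSF1KO cords (limma, adjusted p = 4.41e-06), the urokinase receptor gene Plaur by 1.504 ± 0.13 and the chemokine gene Ccl2 by 1.54 ± 0.16. In control cords Timp1 rose by 3.63 ± 0.55 (adjusted p = 0.0318) and the macrophage elastase gene Mmp12 by 2.29 ± 0.31 (adjusted p = 0.0222). As background, these genes are also made in inflamed tissue without senescence. Lmnb1, a nuclear lamina gene on this list, rose by 0.40 ± 0.08 in AstroCSF1KO cords (limma, adjusted p = 0.0051) and is counted among the 8. It was singled out after its values were seen. As background, Lmnb1 is known to fall in senescent cells. Whether any cells of this tissue were senescent was not tested.

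**Figure D5:**
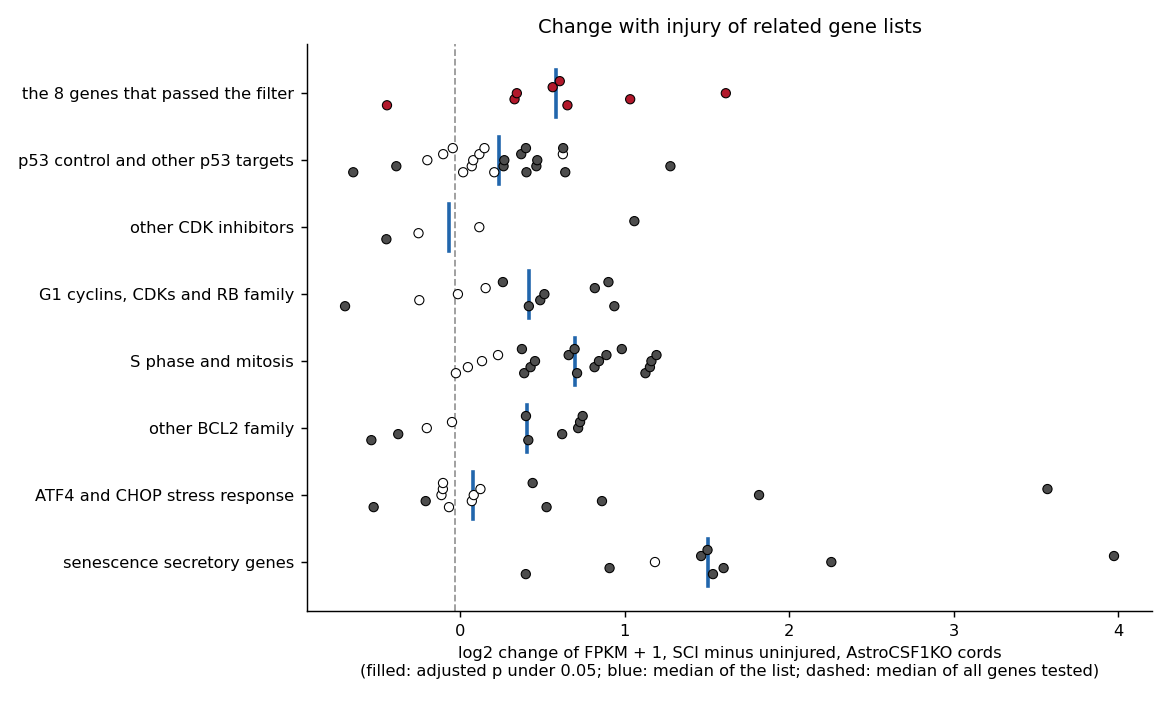
Log2 change of FPKM + 1 with injury in AstroCSF1KO cords (x axis) for the 8 genes that passed the filter and for 7 related lists with at least 4 genes tested; points are genes, filled where they passed at an adjusted p under 0.05, blue lines are list medians and the dashed line is the median of all genes kept. The medians are 0.58 for the 8 genes, 0.24 for the other p53 genes, 0.70 for S phase and mitosis and 0.08 for the ATF4 and CHOP genes.

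The kept protein-coding genes whose pattern over the 14 libraries was most like each gene were found by the mean absolute difference of standardized log2 values, among 13090 candidates. The nearest was Map2k2 for Phlda3, at 0.0665 SD, then Lactb2 for Mdm2, at 0.105 SD, Amdhd2 for Bax, at 0.111 SD, and Lamp2 for Ccng1, at 0.118 SD. Less close were Tspo for Cdkn1a, at 0.174 SD, Plscr4 for Trp53inp1, at 0.180 SD, Pik3r5 for Gdf15, at 0.190 SD, and Ccdc190 for Cdkn2b, at 0.222 SD. These patterns hold all 14 libraries, those that stand apart included, and no 2 of the 8 genes had the same nearest gene.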

How the data were processed

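Poly(A) RNA of 14 spinal cord samples was sequenced in paired ends without keeping strand, per the labels' protocols. The submitters used CASAVA 1.8, HISAT2 and mm39, per the submitters' processing notes; no source used here names the counting program or annotation. The authors deposited FPKM values for 56748 genes with names, lengths and mm39 positions. From these, whole reads were recovered (100% of values whole within 0.01), which gave depths of 13263610 to 21969581 reads; the deposited FPKM already hold a scaling by median-of-ratios size factors. Reads carry no molecular identifiers, so limits from a count of 0 (3 reads) cover counting error only.

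Values were analysed as log2(FPKM + 1) with limma 3.58.1 in R 4.3.3, with an intensity trend, two-sided, Benjamini-Hochberg over the 15155 genes with at least 1 FPKM in at least 3 libraries; a comparison of 2 groups used their libraries only. The injury change over both genotypes and the interaction used all 14. The fits were tested on simulated data. Exact permutation tests took single genes. GC content came from the longest GENCODE M21 transcript.

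The 9 genes and the lists were chosen with earlier results of these data known. Besides the 9, the text names Trp53, Csf1 and, for each list and comparison, some of the called members lowest in p, up to 4; 1 such gene is not reported here. Same-numbered control libraries deviated together across genes (r = 0.616, 0.832 and 0.733 for replicates 1 to 3), and replicate number was fitted as a block there as an alternative. The highest r of each injured library with an uninjured one of another number was -0.528, 0.708 and 0.812. For replicates 2 and 3 the likeness was thus not particular to the number. The labels do not say what a number marks, and replicate 1 stands apart in both groups. In the other pairs of groups at least 1 such r was under 0.1. Alternatives were a pseudocount of 0.1, no filter, a filter of 5 FPKM, scaling to total reads, voom on recovered reads, a fit of all 14 libraries, the replicate block, a sex term, each library left out, and each set of unusual libraries left out; leaving out both sets and removing the GC trend (span 0.3) were added after seeing the data.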

Additional observations from a re-analysis of the deposited data

Results flagged for a closer look

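In injured AstroCSF1KO cords, Phlda3 stood at 71.57 FPKM in replicate 1 and at 58.1 to 59.0 FPKM in the other 3 libraries, so 1 value lies far from the rest of its group. Replicate 1 is the injured AstroCSF1KO library that is not rich in rRNA reads, and its part in the value was not tested. Chance flags about 1 in 20 groups, and 18 groups were looked at.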

How the results depend on the processing

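In AstroCSF1KO cords the 8 genes that passed after injury became 1 (Gdf15) in a fit of all 14 libraries, which shares the spread of the control libraries, and 3 (Ccng1, Bax and Gdf15) without the 4 libraries rich in rRNA reads, which leaves 1 injured library that is assumed to vary like the others; leaving out each library gave 7 to 8. All genes called there numbered 6943, against 1141 and 1446 in those fits. In control cords the 0 genes became 1 in the fit of all 14 libraries (Cdkn2b), 1 with the replicate block (Bax), 1 with the GC trend removed (Bax) and 5 without the 3 libraries that stand apart, and 0 with each library left out; all genes called numbered 158, against 1073, 1030, 824 and 3624 in those fits, 63 with no filter, 94 at 5 FPKM, 101 by voom and 15 to 125 with a library left out. The replicate block changed the call of no other gene of the 8. With genotype as a term the 3 genes became 1 (Ccng1) with a filter of 5 FPKM, which drops Gdf15 and Cdkn2b, 1 without the libraries rich in rRNA reads (Cdkn2b), 6 with the GC trend removed, 6 without both sets of libraries and 8 without the 3 that stand apart; leaving out each library gave 3 to 4. All genes called there numbered 2735, against 1683, 1029, 5104, 6562 and 7751 in those fits. Between genotypes and for the interaction 0 of the 8 passed under every alternative run, voom included, and all genes called were at most 15. The permutation within genotypes was under 0.05 for 5 of the 9 genes, for 3 to 5 with a library left out and for 8 without the 3 that stand apart; that between injured genotypes was for 1, and for 0 to 1 with a library left out. With genotype as a term, scaling to total reads gave 1872 genes higher and 688 lower, against 1598 and 1137. Of the single genes, 51 values turned their direction, and none of these had passed. Without the 3 libraries that stand apart the difference between injured genotypes was -0.0698 for Bax, 0.22 for Ccng1, -0.16 for Cdkn1a, 0.16 for Mdm2, -0.11 for Phlda3, -0.0596 for Trp53 and 0.0871 for Trp53inp1, that between uninjured ones -0.0084 for Cdkn1a and -0.0129 for Gdf15, and the interaction -0.15 for Cdkn1a and -0.0625 for Trp53. Without both sets the injured difference was 0.22 for Ccng1, -0.0404 for Cdkn2b and 0.12 for Mdm2, the uninjured one -0.0333 for Gdf15 and the interaction -0.10 for Cdkn1a. With the GC trend removed the injured difference was 0.0725 for Ccng1, -0.31 for Cdkn2b and 0.15 for Trp53inp1. The uninjured one was -0.11 for Cdkn1a, -0.10 for Cdkn2b and -0.71 for Gdf15. For Cdkn2b and Gdf15, which are near 0, subtracting such a trend is not meaningful. The injury change of Phlda3 with the trend removed was 0.18 in control cords and 0.0375 with genotype as a term. With the replicate block the injury change in control cords was -0.0187 for Mdm2 and 0.48 for Phlda3, and that of Phlda3 with genotype as a term 0.0298. Scaled to total reads it was 0.0228 for Phlda3 in control cords, and the interaction of Trp53 was -0.000174; without the libraries rich in rRNA reads that of Bax was 0.15. With each library left out, the injury change in control cords ran from -0.0783 to 0.97 for Bax, -0.0394 to 0.455 for Mdm2, -1.001 to 0.48 for Phlda3 and -0.26 to 0.56 for Trp53. The interaction ran from -0.62 to 0.42 for Bax, -0.19 to 0.55 for Ccng1, -0.12 to 0.37 for Mdm2, -0.92 to 0.56 for Phlda3 and -0.29 to 0.53 for Trp53. The injured difference ran from -0.42 to 0.0481 for Ccng1, and the uninjured one from -0.0084 to 0.43 for Cdkn1a and -0.0129 to 0.0924 for Gdf15. Where no cause is given above, the cause was not tested. Depth limits Cdkn2a, Gdf15 and Cdkn2b most, with as few as 0, 0 and 3 reads in a library.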
